A study of Mus musculus with 3 samples.

Results

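Transcripts of 10 basement membrane genes were followed in dorsal skin of 4-day-old mice. They encode the laminin chains Lama2, Lama4, Lama5, Lamb1, Lamb2 and Lamc1, the nidogens Nid1 and Nid2, and the heparan sulfate proteoglycans perlecan (Hspg2) and agrin (Agrn). Members were the probe sets that the platform annotation pairs with exactly 1 of these symbols, which gave 21 of 45037 probe sets and 10 of 18193 named genes. A probe set is a group of short oligonucleotides on the array that together give 1 value for a transcript. All 10 genes, by 15 of the 21 probe sets, reached a mean log2 value of 5 over the 3 arrays, the minimum for testing, as did 8456 genes in all.

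The study compared female BALB/cA mice that were wild type (uncv +/+) with sisters that were uncv null (uncv -/-), born to uncv +/- parents and told apart by their whiskers or by PCR. Uncovered (uncv), a recessive hair loss mutation, was later placed in Rhbdf2, which encodes the inactive rhomboid iRhom2. There were 1 wild type array and 2 uncv null arrays, called null array 1 and null array 2 after their sample numbers, each from total RNA of whole dorsal skin. Every value therefore sums epidermis, follicles, dermis, vessels, nerve, fat and muscle, and fewer cells of a type cannot be told apart from less RNA per cell. The labels do not say how many animals gave RNA to each sample. The p-values speak only for these arrays. Their spread comes from the gap between the 2 null arrays, moderated toward that of all tested probe sets.

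A basement membrane is a thin sheet of matrix beneath epithelia and around muscle fibres, vessels, nerves and fat cells. Laminins are trimers of an alpha, a beta and a gamma chain that polymerise on the cell surface and bind integrins and dystroglycan. Type IV collagen forms a network beside them, nidogens bridge laminin and collagen, and perlecan and agrin add heparan sulfate chains that bind growth factors. In skin, the sheet under the epidermis also surrounds each hair follicle.

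Over the brightest probe set of each gene, all 10 genes lay above wild type in null array 1, while 7 of 10 lay below it in null array 2. Lama4, Lama5 and Nid2 lay above wild type in both null arrays, and 0 of 10 lay below it in both. With each gene taken as the mean of its tested probe sets, 8 of 10 lay above wild type in null array 1, and Lamb1 and Nid1 lay below it in both null arrays, at mean differences of -0.085 and -0.24. Of the 8456 tested genes, 53.5% exceeded wild type in null array 1, 41.2% lay below in null array 2, 38.8% lay above in both and 26.4% below in both. The pattern of above in null array 1 and below in null array 2 was shown by 7 of the 10 genes and by 14.7% of all tested genes. For these 7 genes the wild type array lay between the null arrays.

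The median difference from wild type over the 10 genes was 0.14 on the log2 scale in null array 1 and -0.09 in null array 2, against 0.03 and 0.07 over all tested genes. Mean differences of the 10 genes ran from -0.13 to 0.29, and 28.5% of tested genes had a mean difference at least as large in size as the largest of these. In 8 of the 10 genes the null arrays differed from each other by more than their mean differed from wild type, as they did in 57.5% of tested genes. None of the 10 passed limma's test at an adjusted p of 0.05 (adjusted p = 0.9996 for each), and none had an unadjusted p under 0.05, which 2.9% of tested genes had. Over all tested genes limma called 0 higher (0%) and 0 lower (0%), with 245 at an unadjusted p under 0.05. At this size, limma's 95% intervals for 9 of the 10 mean differences lay within 1 log2 unit (2-fold) either way, so smaller changes could not be told from none.

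**Figure D1:**
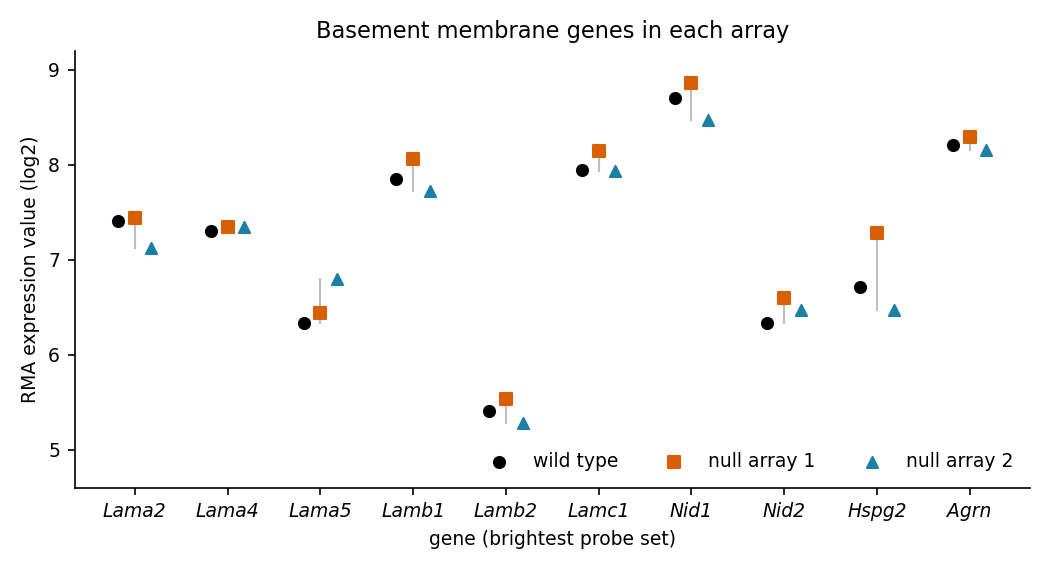
RMA expression values (log2, vertical axis) of the brightest probe set of each gene (horizontal axis) in the 1 wild type array (circles) and the 2 uncv null arrays (squares and triangles); each mark is 1 array and grey lines span the 3 values. Null array 1 lies above wild type for all 10 genes and null array 2 below it for 7; heights of different genes are not comparable.

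The plot of values by array shows that the array order, null array 1 above wild type above null array 2, recurs across chains of different type. Lama5 and Lama2 had the highest and lowest mean difference, and Hspg2 the widest gap between the null arrays. The 250 bases before the RefSeq start of these 3 genes (GRCm38.p6) are shown. Lama5 and Lama2 were picked as the ends of the range of mean differences, and Hspg2 for its gap. Capitals mark the searched motifs on either strand, the GC box GGGCGG, the TATA box TATAAA, the CCAAT box CCAAT and the AP-1 site TGANTCA.
Lama5 (chr2:180225860-180226109, minus strand): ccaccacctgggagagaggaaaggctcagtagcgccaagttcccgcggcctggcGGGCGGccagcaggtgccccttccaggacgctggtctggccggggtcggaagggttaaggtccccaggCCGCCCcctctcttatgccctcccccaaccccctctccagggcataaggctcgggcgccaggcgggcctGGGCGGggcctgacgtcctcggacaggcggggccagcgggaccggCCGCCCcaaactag
Lama2 (chr10:27616943-27617192, minus strand): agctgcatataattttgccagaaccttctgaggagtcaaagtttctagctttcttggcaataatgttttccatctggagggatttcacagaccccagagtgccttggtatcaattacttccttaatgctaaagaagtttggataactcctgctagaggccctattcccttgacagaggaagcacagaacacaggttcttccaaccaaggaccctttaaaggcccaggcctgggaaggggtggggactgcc
Hspg2 (chr4:137468553-137468802, plus strand): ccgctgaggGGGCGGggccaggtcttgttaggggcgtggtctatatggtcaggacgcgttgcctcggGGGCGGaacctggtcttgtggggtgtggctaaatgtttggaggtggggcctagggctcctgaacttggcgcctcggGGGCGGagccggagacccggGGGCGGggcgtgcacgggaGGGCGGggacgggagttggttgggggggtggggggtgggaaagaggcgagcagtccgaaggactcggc
The Lama5 window held 4 GC boxes and the Hspg2 window 5, while the Lama2 window held none of the 4 motifs. Agrn held 2 and 12 GC boxes at its starts, at a mean difference of 0.01. Lamb1 held 2 at 0.04, Nid1 held 1 at -0.04 and Lamb2 held none at 0.0012. A link between GC boxes and the differences was not tested. G and C made up 72.4% of the Lama5 window, 70.0% of that of Hspg2 and 47.2% of that of Lama2. Promoter entries were matched for 7 of the 10 genes, at 8 starts because Agrn had 2. A GC box lay at 6 of these 8 starts, against 32.7% of 32851 promoters of the same length, and a CCAAT box at 2 of 8, against 33.8%. No TATA box and no AP-1 site was found at the 8 starts, where 12.4% and 6.75% of all promoters held one. These are matches of letters in a window, and no binding was measured.

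Among the 3 alpha chains of the 10 genes, Lama5 lay highest against wild type. It encodes the chain typical of the epidermal and follicular basement membrane and of mature vessels. Its log2 values were 6.33 in wild type, 6.44 in null array 1 and 6.80 in null array 2. Both null arrays lay above wild type, null array 2 by 1.38-fold and null array 1 by 1.08-fold. The mean difference was 0.29 ± 0.29 (moderated standard error from limma over the 3 arrays, as for every ± below, 95% interval -0.43 to 1.00, adjusted p = 0.9996). The next brightest Lama5 probe set gave 5.56, 5.78 and 6.10 in the same order. It ranked the arrays alike, with differences of 0.22 and 0.54 from wild type. A further Lama5 probe set was below the minimum, at 2.82, 2.97 and 2.70.

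Lama2 encodes the alpha chain around muscle fibres and Schwann cells, and its loss causes a muscular dystrophy. It had values of 7.41 in wild type, 7.44 in null array 1 and 7.12 in null array 2. Wild type and null array 1 were close, and null array 2 was the low array. The mean difference was -0.13 ± 0.28 (95% interval -0.83 to 0.56). It was the lowest of the 10 genes.

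Lama4, the alpha chain of endothelial, fat cell and nerve basement membranes, had values of 7.30 in wild type, 7.35 in null array 1 and 7.35 in null array 2. The null arrays differed from each other by 0.0022 and lay 0.05 above wild type, with a mean difference of 0.05 ± 0.26 (95% interval -0.58 to 0.68). Rescaling by quantile normalization moved null array 2 to -0.03 against wild type, so that Lama4 then lay on different sides. Its other probe set, below the minimum, read 4.42 in wild type, 3.32 in null array 1 and 4.47 in null array 2. That probe set was low in null array 1 alone, by 1.10 log2 units, where the brighter one was not.

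Lamb1, the most widespread beta chain, had values of 7.85 in wild type, 8.06 in null array 1 and 7.73 in null array 2. Wild type lay between the null arrays, and the mean difference was 0.04 ± 0.28 (95% interval -0.66 to 0.74). A second tested probe set kept this order at 6.70, 6.91 and 6.39. Another reversed it at 6.26, 5.64 and 6.39, with null array 1 the low array. A further Lamb1 probe set, below the minimum, read 2.60, 2.75 and 2.74. Lamb1 therefore has no settled direction here.

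Lamb2, the beta chain of neuromuscular synapses and vessel walls, was represented by 1 probe set. Its values were 5.41 in wild type, 5.54 in null array 1 and 5.28 in null array 2, so that the null arrays lay at about equal distances on opposite sides. The mean difference was 0.0012 ± 0.27 (95% interval -0.67 to 0.68), the smallest in size of the 10. Lamc1, the gamma chain of most laminin trimers and the one that binds nidogen, had 7.95 in wild type, 8.15 in null array 1 and 7.93 in null array 2. Null array 2 lay 0.01 below wild type, and centring the arrays on their medians moved it to 0.04 above. The mean difference was 0.09 ± 0.27 (95% interval -0.57 to 0.76). A second Lamc1 probe set, below the minimum, read 4.77, 4.20 and 4.81, with null array 1 again the low array.

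Nid1 encodes the nidogen found in nearly all basement membranes. Its brightest probe set gave 8.71 in wild type, 8.86 in null array 1 and 8.47 in null array 2, with wild type between the null arrays and a mean difference of -0.04 ± 0.29 (95% interval -0.76 to 0.69). Its other tested probe set gave 6.74, 5.92 and 6.67, where null array 1 was low by 0.81 log2 units and null array 2 by 0.07. Both tested probe sets put null array 2 below wild type, and they disagreed on null array 1. A further Nid1 probe set, below the minimum, read 2.95, 2.75 and 3.05, with null array 2 the highest.

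Nid2, a related linker that is most prominent around vessels, had values of 6.33 in wild type, 6.60 in null array 1 and 6.47 in null array 2. Both null arrays lay above wild type, also under both rescalings, and they differed from each other by 0.13. The mean difference was 0.20 ± 0.26 (95% interval -0.44 to 0.85), the second highest of the 10.

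Hspg2 encodes perlecan, the large proteoglycan of vascular, muscle and epidermal basement membranes. It had values of 6.72 in wild type, 7.28 in null array 1 and 6.47 in null array 2. The null arrays stood 0.81 apart on opposite sides of wild type, so the mean difference of 0.16 ± 0.39 (95% interval -0.80 to 1.12) describes neither. A second tested probe set gave 6.20, 6.55 and 6.21, again with null array 1 high and with null array 2 0.01 above wild type.

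Agrn encodes agrin, which gathers acetylcholine receptors at the neuromuscular synapse and is also present around vessels and under epithelia. Its values were 8.21 in wild type, 8.29 in null array 1 and 8.15 in null array 2. The 3 arrays lay within 0.14 of each other, with a mean difference of 0.01 ± 0.26 (95% interval -0.63 to 0.66). A further Agrn probe set, below the minimum, read 2.85, 2.34 and 2.58.

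Probe sets of a gene did not always agree. Of the 4 genes with more than 1 tested probe set, 2 (Lamb1 and Nid1) had probe sets on opposite sides of wild type in null array 1, and 2 (Lamb1 and Hspg2) in null array 2. Such opposite signs were found in 51.4% of the 2820 genes with several tested probe sets in null array 1 and in 35.5% in null array 2, so the members' counts stand near this background in null array 1. The tested probe sets of Nid1 spanned 0.97 log2 units in null array 1 and 0.17 in null array 2, and those of Lamb1 spanned 0.83 and 0.44. Spans were narrower for Lama5, at 0.12 and 0.07, and for Hspg2, at 0.21 and 0.26. Over all such genes the median span was 0.34 in null array 1 and 0.23 in null array 2.

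The arrays also differed in quality measures. The 18S ribosomal RNA controls had a mean of 3.59 in wild type, 7.93 in null array 1 and 4.26 in null array 2. The 3' control probe set of Actb exceeded the 5' one by 0.66, 1.23 and 0.79 in the same order, and the mean of 18 hybridisation spike-ins was 8.01, 8.71 and 8.44. Null array 1 was highest in all 3 measures, and for the spike-ins null array 2 lay nearer to it than to wild type. Over all tested probe sets, the SD of the log2 differences was 0.350 between wild type and null array 1, 0.432 between wild type and null array 2, and 0.416 between the null arrays. By that measure null array 2 was the array farthest from the other two. The part of these measures in the values of the 10 genes was not tested. Without null array 1, the 7 genes that straddled wild type lie below it, and without null array 2 all 10 lie above.

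**Figure D2:**
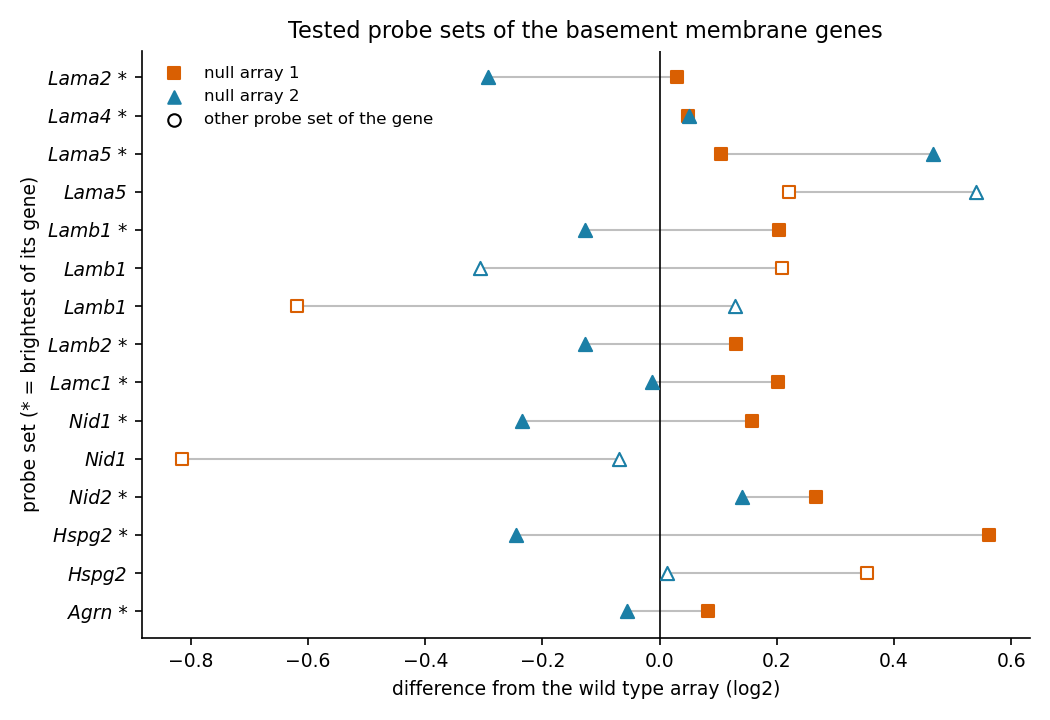
Difference from the wild type array (log2, horizontal axis) for the 15 tested probe sets (vertical axis), in null array 1 (squares) and null array 2 (triangles); filled marks and an asterisk show the brightest probe set of a gene and open marks its other probe sets. The filled squares all lie right of 0, while an open Lamb1 square (-0.62) and the open Nid1 square (-0.81) lie far left.

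The plot of differences by probe set shows where these disagreements fall. Of the 5 other tested probe sets, 2 lay below wild type in null array 1, and of the 6 below the minimum, 4 did.

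Genes with the most similar pair of differences were found by Euclidean distance over the 2 differences from the 3 arrays. Nearest to Lama5 were Clic1 at a distance of 0.010, Dffa at 0.011 and Ebna1bp2 at 0.011. Nearest to Lama2 were Prkra at 0.0061, Lrpap1 at 0.0082 and Ywhae at 0.010. Within a distance of 0.1 lay 205 genes for Lama5 and 216 for Lama2, so such a match is common with so few arrays.

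Of a list of 5 laminins of epithelial and other basement membranes, 2 were tested. These were Lama3 and Lamb3, chains of the laminin that anchors basal keratinocytes. Both lay above wild type in both null arrays, as did 38.8% of all tested genes. Lama3 stood at a log2 value of 6.31 in wild type, 6.52 in null array 1 and 7.01 in null array 2. Lamb3 had 5.94, 6.17 and 6.62 in the same order. Like Lama5, both were highest in null array 2, with mean differences of 0.45 ± 0.31 and 0.45 ± 0.30, and neither passed the test (limma adjusted p = 0.9996).

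Basement membrane collagens were mixed. Of 9 named genes 6 were tested, with 3 above wild type in both null arrays and 1 below, against 38.8% and 26.4% of all tested genes. Medians of the 6 were 0.25 in null array 1 and 0.13 in null array 2. Col4a1 and Col4a2, the chains of the common type IV network, lay above wild type by 0.47 ± 0.26 and 0.49 ± 0.26. Col4a1 had values of 10.02 in wild type, 10.42 in null array 1 and 10.57 in null array 2, so its null arrays lay closer to each other than to wild type. Col4a5, a chain of more restricted membranes, was at -0.48 ± 0.26, with both null arrays below wild type. All 6 missed the adjusted threshold.

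Other proteins of the basement membrane lay mostly below wild type. Of 18 named genes 13 were tested, with 8 below wild type in both null arrays and 3 above, against 26.4% below and 38.8% above over all tested genes. Npnt, the nephronectin ligand of an integrin, had values of 6.90 in wild type, 6.25 in null array 1 and 5.60 in null array 2. Its mean difference of -0.98 ± 0.35 was the largest of the list in size. Egfl6, a matrix protein of the upper follicle, was at -0.53 ± 0.27 and the fibulin Fbln1 at -0.51 ± 0.26. None passed the adjusted test.

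Receptors and cell surface partners had 11 of 16 named genes tested, 5 above wild type in both null arrays and 3 below. Over all tested genes, 38.8% lay above in both and 26.4% below. Itgb4 and Itga3, integrin subunits with which keratinocytes hold laminin, were at 1.07 ± 0.31 and 0.89 ± 0.27, and the proteoglycan Sdc4 at 0.66 ± 0.29. Itgb4 had values of 5.40 in wild type, 6.22 in null array 1 and 6.72 in null array 2. Itgb1, another integrin subunit of the list, lay below wild type in both null arrays, at -0.42 ± 0.31. Enzymes that build heparan sulfate or the laminin-binding sugar of dystroglycan had 14 of 24 tested, 1 above and 5 below in both. Sulf1, which trims sulfate from heparan sulfate, was at -0.11 in null array 1 and -1.31 in null array 2. Hs6st2 was at -0.34 ± 0.26 and Extl2 at -0.24 ± 0.26. In neither list did any gene pass the adjusted test.

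**Figure D3:**
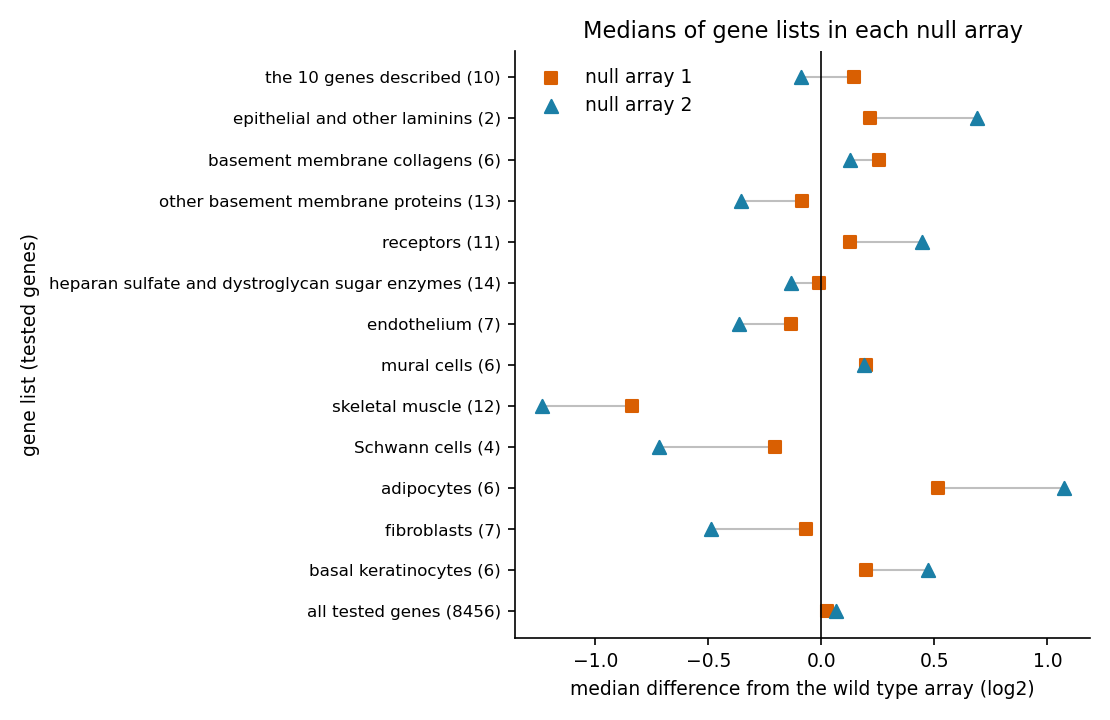
Median difference from the wild type array (log2, horizontal axis) for each gene list (vertical axis, number of tested genes in brackets) in null array 1 (squares) and null array 2 (triangles). The 10 genes described lie at 0.14 and -0.09, on opposite sides of 0, while skeletal muscle markers lie at -0.84 and -1.24 and adipocyte markers at 0.52 and 1.07.

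Markers of the tissues that make these membranes also differed between arrays, as the plot of list medians shows, and their part in the values of the 10 genes was not tested. The summed level of each list is the log2 of its summed linear values, so the brightest genes weigh most in it. Counts of markers above or below in both null arrays stand beside shares of 38.8% above and 26.4% below over all tested genes. Skeletal muscle markers were below wild type in both null arrays for 11 of 12 genes, with summed levels of 14.11 in wild type and 13.31 to 13.56 in uncv null. For Lama2, Agrn, Hspg2 and Lamb2, placed above at muscle or its synapses, the mean differences were -0.13, 0.01, 0.16 and 0.0012. These means cover differences on opposite sides of wild type. In the same gene order they were 0.03, 0.083, 0.56 and 0.13 in null array 1. In null array 2 they were -0.29, -0.055, -0.24 and -0.13. Schwann cell markers had 4 of 8 genes tested, 2 below wild type in both arrays and 1 above, and summed levels of 10.71 in wild type and 9.86 to 10.13 in uncv null.

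Endothelial markers had 7 of 9 genes tested, 3 below wild type in both arrays and 0 above, with summed levels of 8.82 in wild type and 8.59 to 8.60 in uncv null. The endothelial receptors Tie1 and Flt1 were below the minimum, at mean log2 values of 4.19 and 4.04. Mural cell markers had 6 of 7 tested, 4 above in both and 0 below, with summed levels of 11.26 in wild type and 11.48 to 11.49 in uncv null. Vascular lists thus did not lie on 1 side. Of the genes placed at vessels above, Lama5 was at 0.29, Nid2 at 0.20, Hspg2 at 0.16 and Lama4 at 0.05. Agrn and Lamb2 were at 0.01 and 0.0012. For Hspg2, Agrn and Lamb2 these are means of differences on opposite sides of wild type, above in null array 1 and below in null array 2.

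Adipocyte markers lay above wild type in both arrays for 6 of 6 tested genes of 8, with summed levels of 11.57 in wild type and 11.86 to 12.18 in uncv null. Fibroblast markers lay below in both for 6 of 7, with 14.47 in wild type and 14.03 to 14.38 in uncv null. Basal keratinocyte markers lay above in both for 5 of 6, with 12.65 in wild type and 12.71 to 13.03 in uncv null. Of these, Itgb4 and Lamb3 are also in the receptor and epithelial laminin lists, so the lists are not separate. Krt14, the basal keratin, and Col1a1, the main dermal collagen, were at 11.49 and 11.79 in wild type, so defining genes of both skin layers were present. Lama5 and the keratinocyte list were both highest in null array 2, as was the adipocyte list by summed level. The mural cell sums hardly differed, at 11.48 in null array 1 and 11.49 in null array 2, and 4 of the 6 mural genes were higher in null array 1. A link between these was not tested.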

How the data were processed

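Total RNA of dorsal skin was hybridised to 1-colour arrays, 1 per sample. The authors deposited log2 values made with RMA, which is named in the submitters' processing notes; its software and background model are not stated there. RMA usually brings arrays to a common distribution, which hides a shift of all transcripts; the deposited arrays were close to one but not identical, with medians of 3.70, 3.70 and 3.65. The extraction reagent differs between the labels' protocols and the series' design text.

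The table held 45101 probe sets, of which 64 controls were kept apart. The platform annotation paired 34945 of the others with 1 gene, 932 with several and 9160 with none; 34741 matched a RefSeq gene by Entrez identifier. Probe sets with a mean of at least 5 were tested, and a gene was its brightest probe set. Uncv null minus wild type was tested with limma 3.58.1 in R 4.3.3 (Benjamini-Hochberg adjustment over 13559 probe sets, threshold 0.05, 1 residual and 4.75 prior degrees of freedom). The spread of the lone wild type array is taken to equal that of the others. The number of arrays limits the precision. The fit was tested on simulated data in which all probe sets had the same spread. It therefore does not show how well the fit suits these arrays. The members and lists were chosen with earlier results of these data known. All members are named, with the 3 largest differences at most of each pathway list and the 3 nearest patterns of the members at either end. Besides these, Itgb1, Krt14, Col1a1, Tie1 and Flt1 were named after their values were seen. Alternatives were other minimums, 2 rescalings, the mean of probe sets, other variance models and leaving out an uncv null array. Listed genes that were not tested were below the minimum or are not analysed here.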

Additional observations from a re-analysis of the deposited data

Results flagged for a closer look

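Control probe sets for 18S ribosomal RNA, which enter no comparison, lay 4.34 log2 units above wild type in null array 1 and 0.67 above it in null array 2. The mean of the 3 probe sets was 3.59 in wild type, 7.93 in null array 1 and 4.26 in null array 2. This signal was singled out because it lies outside the measured genes and above the control array. Null array 1 is also the array in which all 10 basement membrane genes lay above wild type by their brightest probe set. A link between these values was not tested.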

How the results depend on the processing

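With 1 wild type array, the comparison cannot be repeated without it, and leaving out an uncv null array leaves no residual degrees of freedom, so those settings give values and no test. No paired analysis was possible because the wild type array carries no replicate number. limma called 0 genes under each of the 7 alternatives that allow a test, with a smallest adjusted p of 0.44 for the mean of probe sets and between 0.998 and 1.00 for the others, and with 124 to 734 genes at an unadjusted p under 0.05. Of 50 alternative values of single genes, 41 kept their direction and 9 turned. The other minimums are left out of this count, since they cannot change a gene's value. Genes with 1 tested probe set are counted under the mean of probe sets, though their value is fixed there too. Leaving out a null array gives the difference of the remaining one. The turns there, 5 without null array 1 and 2 without null array 2, thus follow from the values above. Quantile normalization turned Lamb2 to -0.0044, and the mean of probe sets turned Lamb1 to -0.085. Without each uncv null array in turn, Lama2 ran from -0.29 to 0.030, Nid1 from -0.23 to 0.16, Lamb1 from -0.13 to 0.20, Lamb2 from -0.13 to 0.13, Lamc1 from -0.013 to 0.20, Hspg2 from -0.24 to 0.56 and Agrn from -0.055 to 0.083. The count of genes above wild type then ran from 3 to 10 and of those below from 0 to 7, since only 1 array remained to compare, and the median from -0.09 to 0.14. At a minimum mean of 7, 6 of the 10 genes were left and 1 lay above wild type in both arrays. With the mean of probe sets, 2 lay below in both, and 8 lay above in null array 1, against 49.3% of all tested genes. All 10 lay above wild type in null array 1 under both rescalings, and in null array 2 6 lay below it after median centring and 8 after quantile normalization. Over all tested genes the share below wild type in null array 2 moved the same way, from 41.2% to 35.3% and 49%, and the share above in null array 1 from 53.5% to 53.3% and 58.2%.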
